A study of Mus musculus with 12 samples.

Results

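The Wnt ligands Wnt3, Wnt3a, Wnt4, Wnt6, Wnt7b, Wnt9a, Wnt9b, Wnt10a and Wnt10b were followed through the growth of the mouse upper jaw primordium. They were chosen by name, as Wnt genes made mainly by ectoderm, and make up 9 of the 53801 genes in the count tables; all 9 passed the filter on low counts and were tested. The tissue was the whole maxillary prominence of wild type C57BL/6 embryos taken without treatment at 4 stages, named by days of embryonic age: E10.5, then E11.5 and E12.5, then E14.5. Each stage has 3 libraries. RNA was extracted with Trizol from tissue of 7 littermates, 2 µg entered each library, and messenger RNA was taken by its poly-A tail with a kit that does not mark the strand. The labels describe 3 independent RNA samples per stage but not whether each came from its own litter, so the p-values measure the spread between these samples, which may be partly technical. The labels give E14.5 a protocol entry of its own, apart from the other 3 stages. In every comparison with E14.5, stage and any difference in protocol therefore cannot be told apart. One E14.5 library, replicate 1, carries 2 parts in its title and was deposited and used as 1 library.

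Wnt proteins are secreted signals that carry a lipid, added by the acyltransferase Porcn and ferried out of the cell by Wls. They bind Frizzled receptors with the co-receptors Lrp5 and Lrp6, and in the canonical branch this stabilises beta-catenin, which enters the nucleus and switches on genes through TCF and LEF factors. In the face, ectodermal Wnt ligands are read by the neural crest mesenchyme underneath, and loss of Wnt9b in mice causes cleft lip, while WNT3 variants have been linked to cleft lip in humans.

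Between 28294837 and 33941430 reads were counted in genes per library. Levels are given as CPM (reads per 1e6 reads in genes, with library sizes scaled by the trimmed mean of M values), and a gene was called changed at an adjusted p under 0.05 in edgeR's quasi-likelihood test, adjusted over all 18365 genes tested. The tissue is a mixture, so fewer epithelial cells and less RNA per epithelial cell cannot be told apart. Of 12 general epithelial markers, including Epcam, Cdh1 and Esrp1, none was at 0 in any stage, and their summed level ranged over 422 to 512 CPM in E10.5 libraries, 508 to 599 CPM in E11.5 libraries, 495 to 812 CPM in E12.5 libraries and 456 to 589 CPM in E14.5 libraries. E12.5 replicate 1 had the lowest epithelial sum of its stage (495 CPM, against 812 and 645 CPM in replicates 2 and 3). The E12.5 libraries also differed in a forebrain, eye and olfactory list of 11 genes, at 31.9, 108 and 81.2 CPM in replicate order. That list ranged over 33.1 to 51.4 CPM at E10.5, 31.6 to 62 CPM at E11.5 and 20.3 to 25.7 CPM at E14.5. E10.5 replicate 2 stood apart in neural RNA: its dorsal neural tube list (8 genes, among them Wnt1, Olig3 and Atoh1) summed to 35.4 CPM, against 8.55 and 9.80 CPM in replicates 1 and 3, and its neuron list to 1160 CPM, against 601 and 703 CPM. The share of reads outside genes also moved with stage, at 1.92 to 4.88% for E10.5, 2.16 to 2.42% for E11.5, 5.03 to 5.43% for E12.5 and 5.78 to 6.21% for E14.5.

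Most of the ligands lie beside another Wnt gene. On mm10, Wnt9b (chr11:103727364-103749821, minus strand) and Wnt3 (chr11:103774150-103817957, plus strand) face away from each other with 24.3 kb between them. The same divergent layout holds for Wnt3a (chr11:59248033-59290752) and Wnt9a (chr11:59306928-59333552), 16.2 kb apart, and for Wnt10b (chr15:98770712-98778150) and Wnt1 (chr15:98789857-98793837), 11.7 kb apart. Wnt6 (chr1:74771892-74785322) and Wnt10a (chr1:74791516-74804179) run in the same direction, 6.2 kb apart. Wnt4 (chr4:137277489-137299726) and Wnt7b (chr15:85535437-85582473) have no Wnt neighbour next to them. Of the exons of Wnt7b, 324 bases (6.6%) are shared with the antisense gene AU022754. Without strand, reads from both strands there cannot be told apart.

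The promoter starts of Wnt9b and Wnt3 are shown because this divergent pair gave the steepest falls of the 9 ligands and then parted at E14.5. Each sequence holds 250 bases before the RefSeq start and 30 after it (GRCm38.p6; Wnt9b at chr11:103749792-103750071, minus strand; Wnt3 at chr11:103773925-103774204, plus strand). Capitals mark matches, on either strand, to a TCF/LEF motif reading CTTTGAA in one form, CTTTGAT in another, CTTTGTA in a further one or CTTTGTT in the last, to an AP-2 motif (GCCNNNGGC) or a GC box (GGGCGG).
Wnt9b: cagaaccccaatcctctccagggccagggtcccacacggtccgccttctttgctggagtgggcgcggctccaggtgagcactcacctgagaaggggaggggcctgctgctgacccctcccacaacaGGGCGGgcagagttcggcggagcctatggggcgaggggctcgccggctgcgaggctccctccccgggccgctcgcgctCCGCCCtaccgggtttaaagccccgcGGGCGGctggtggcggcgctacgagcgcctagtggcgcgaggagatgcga
Wnt3: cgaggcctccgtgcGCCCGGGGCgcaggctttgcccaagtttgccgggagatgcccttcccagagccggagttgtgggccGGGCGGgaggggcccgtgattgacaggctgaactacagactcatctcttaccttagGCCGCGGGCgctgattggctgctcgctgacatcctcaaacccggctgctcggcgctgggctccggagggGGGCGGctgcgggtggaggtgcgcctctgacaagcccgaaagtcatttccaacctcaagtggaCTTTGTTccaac
Over the full RefSeq window of 300 bases, Wnt3 held 1 TCF/LEF, 2 AP-2 and 2 GC box matches and Wnt9b held 3 GC boxes with no TCF/LEF or AP-2 match, and none of these matches overlapped one of another motif. Of 32851 windows of that length, 16.9% held a TCF/LEF match, 16.6% an AP-2 match and 35.7% a GC box. RefSeq windows were matched for 7 of the 9 ligands (not Wnt7b and Wnt10a). These 7 had a GC content of 65.7% (Wnt3) to 86.3% (Wnt3a), against a median of 52.7% over the 32851 windows. The matches are not particular to the pair shown. AP-2 matches were also found for Wnt3a (2), Wnt4 (2), Wnt9a (2), Wnt6 (1) and Wnt10b (1). GC boxes numbered 9 for Wnt3a, 8 for Wnt4, 6 for Wnt6, 5 for Wnt9a and 0 for Wnt10b. Among the matched ligands only Wnt3 had a TCF/LEF match.

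Most of the 9 ligands peaked at E11.5 or rose to it, and then took different courses. At E11.5, 7 of 9 were higher than at E10.5 and none lower, while 25.1% of all genes tested were called, 12.2% higher and 12.9% lower. At E12.5, 5 were lower and 1 higher than at E11.5, where 49.3% of all genes were called, 22.2% lower and 27.1% higher. At E14.5, 5 were higher than at E12.5 and none lower, where 47.1% of all genes were called, 23% higher and 24% lower. The members' median log2 fold changes at these steps were 1.38, -1.65 and 0.76, where the medians over all genes tested were -0.039, 0.064 and -0.009. A set of 5 ligands (Wnt3, Wnt6, Wnt7b, Wnt9b and Wnt10b) were called higher at E11.5 and then lower at E12.5, a course called for 512 genes (2.79%), and 4 of them, all but Wnt9b, were higher again at E14.5, as were 188 genes (1.02%). In each of the 3 steps, the libraries of the paired stages did not overlap for 7 of the 9 ligands, against 42.4%, 57.3% and 56.4% of all genes in step order. In the joint test across the 4 stages 8 of 9 were called, all but Wnt3a, as were 81.6% of all genes.

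**Figure D1:**
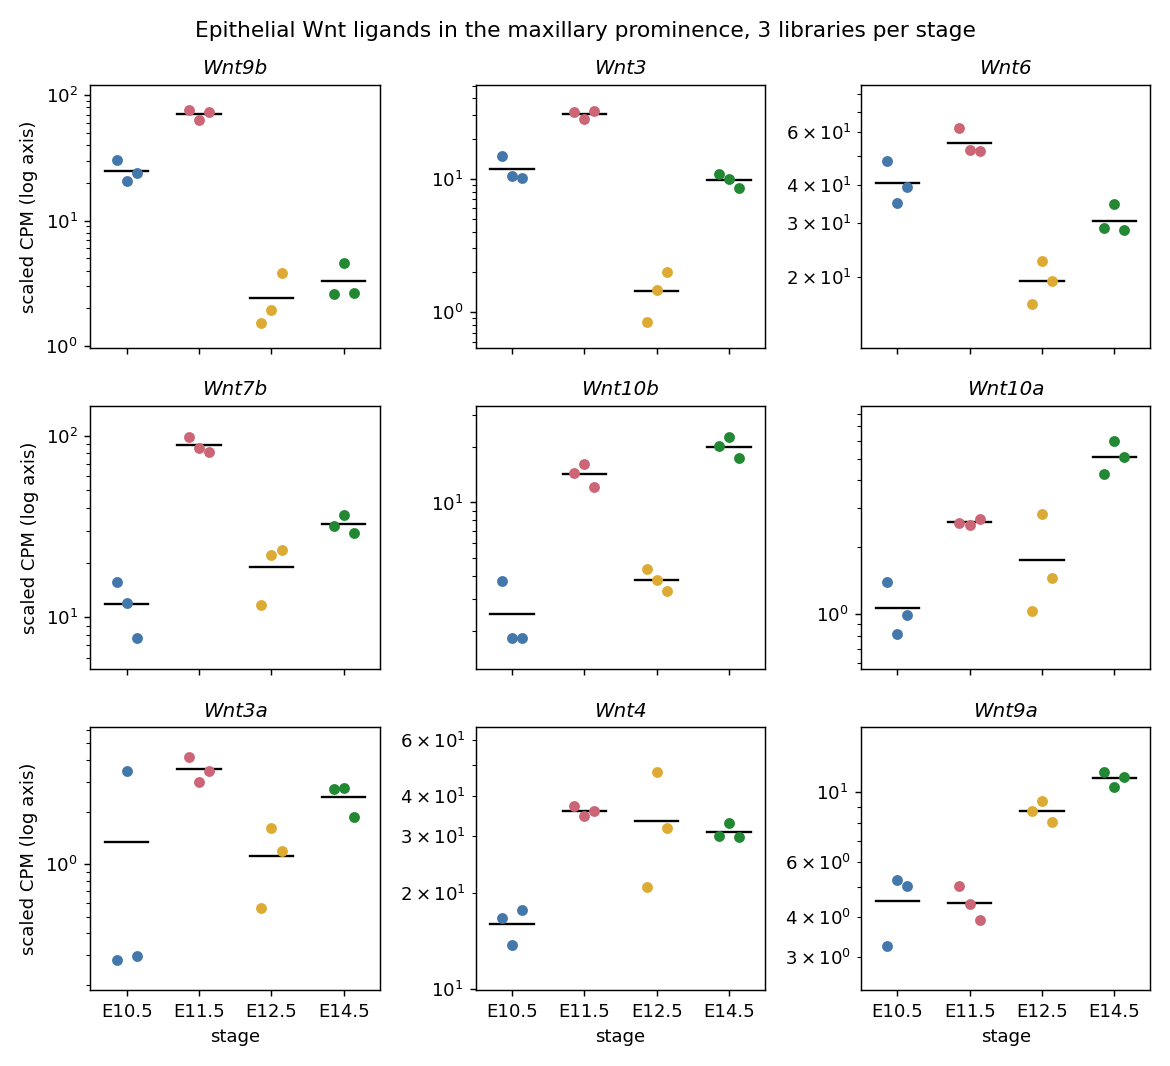
Scaled CPM (log axis) of the 9 ligands at the 4 stages; each point is 1 library and each bar the mean of 3 libraries. Wnt9b and Wnt3 drop together at E12.5, and of this pair it is Wnt3 that is back near 10 CPM at E14.5, while Wnt9a has no E11.5 peak.

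Wnt9b, the ligand whose loss gives cleft lip in mice, had the steepest fall of the 9. It measured 30.5, 20.5 and 24 CPM at E10.5, 76.3, 63.2 and 73.4 CPM at E11.5, 1.53, 1.92 and 3.83 CPM at E12.5, and 2.60, 4.60 and 2.65 CPM at E14.5. All E11.5 libraries lay above all others, and every E12.5 and E14.5 library lay below every E10.5 library. The E12.5 values rest on 49, 63 and 132 reads, against 2145, 1832 and 2161 reads at E11.5. Wnt9b was 2.84-fold higher at E11.5 than at E10.5 (log2 fold change 1.5 ± 0.24, SE; edgeR adjusted p = 0.000534) and 29-fold lower at E12.5 than at E11.5 (log2 fold change -4.86 ± 0.29; edgeR adjusted p = 2.39e-07). At E14.5 it was not called different from E12.5 (log2 fold change 0.42 ± 0.31, edgeR adjusted p = 0.29), and it was 7.65-fold lower than at E10.5 (edgeR adjusted p = 6.03e-07). Without E12.5 replicate 3, the highest of its stage, the last step was 0.94 and was called (edgeR adjusted p = 0.0164).

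Wnt3, the neighbour of Wnt9b and the ligand that starts the primitive streak in the early mouse embryo, fell with it and then came back. Its level was 14.7, 10.5 and 10.2 CPM at E10.5, 31.9, 28 and 32.4 CPM at E11.5, 0.841, 1.47 and 2.00 CPM at E12.5, and 10.9, 10 and 8.58 CPM at E14.5. The E12.5 libraries were the lowest and the E11.5 libraries the highest, with E10.5 and E14.5 overlapping in between. Wnt3 was 2.61-fold higher at E11.5 than at E10.5 (log2 fold change 1.38 ± 0.20; edgeR adjusted p = 0.000248). At E12.5 it was 21.3-fold lower than at E11.5 (-4.41 ± 0.24; edgeR adjusted p = 1.27e-07). At E14.5 it was 6.79-fold higher than at E12.5 (2.76 ± 0.24; edgeR adjusted p = 1.49e-06). Between E14.5 and E10.5 no difference was called (-0.26 ± 0.20; edgeR adjusted p = 0.258).

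The ratio of Wnt9b to Wnt3 reads within each library, which no scaling of libraries can change, kept one sign over the first 3 stages and turned at E14.5. On the log2 scale it was 1.05, 0.97 and 1.23 at E10.5, 1.26, 1.17 and 1.18 at E11.5, 0.85, 0.39 and 0.93 at E12.5, and -2.06, -1.12 and -1.69 at E14.5. Wnt9b thus had the larger count in all libraries of the first 3 stages, and Wnt3 the larger count in all E14.5 libraries. Counts were not divided by exon length (4.52 kb for Wnt9b, 3.08 kb for Wnt3), so the sign compares reads and not levels. Per exon length the libraries of the 2 ligands overlapped at E10.5 and at E12.5. The ratio differed among the 4 stages (exact permutation test of the between-stage sum of squares over 369600 assignments of the 12 libraries, p = 0.000195, adjusted over 7 pairs p = 0.000682). This test asks for any difference among the stages and not for an order of them. Wnt6 over Wnt10a, the other neighbouring pair of members called here, fell in order of age, with means of 5.26, 4.40, 3.56 and 2.58 from E10.5 to E14.5 (exact permutation p = 6.49e-05, the smallest this design can give; adjusted p = 0.000455). In Wnt3a over Wnt9a the means were -2.69, -0.33, -3.06 and -2.19 in the same order, and the exact permutation test did not pass (adjusted p = 0.0606). Without E10.5 replicate 2 its adjusted p was 0.002.

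Pairs within a Wnt subfamily also diverged. Wnt9b over Wnt9a had mean log2 ratios of 2.48, 3.99, -1.94 and -1.80 from E10.5 to E14.5 (exact permutation p = 0.00039, adjusted p = 0.000909). Wnt9b had the larger count in every library of the first 2 stages and Wnt9a in every library of the later 2. For Wnt3 over Wnt3a the means were 4.08, 3.12, 0.39 and 2.01 (exact permutation, adjusted p = 0.0333), and for Wnt10a over Wnt10b -1.16, -2.44, -1.23 and -1.97 (adjusted p = 0.0361). Leaving out 1 library ended the call for Wnt3 over Wnt3a with 9 of the 12 libraries and for Wnt10a over Wnt10b with 10 of 12. Wnt1, the neighbour of Wnt10b and a midbrain and dorsal neural tube ligand, had 23 reads in E10.5 replicate 2 and at most 2 in any other library, so its ratio to Wnt10b (exact permutation, adjusted p = 0.036) rests on that library and on the 0.5 reads added to each count.

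**Figure D2:**
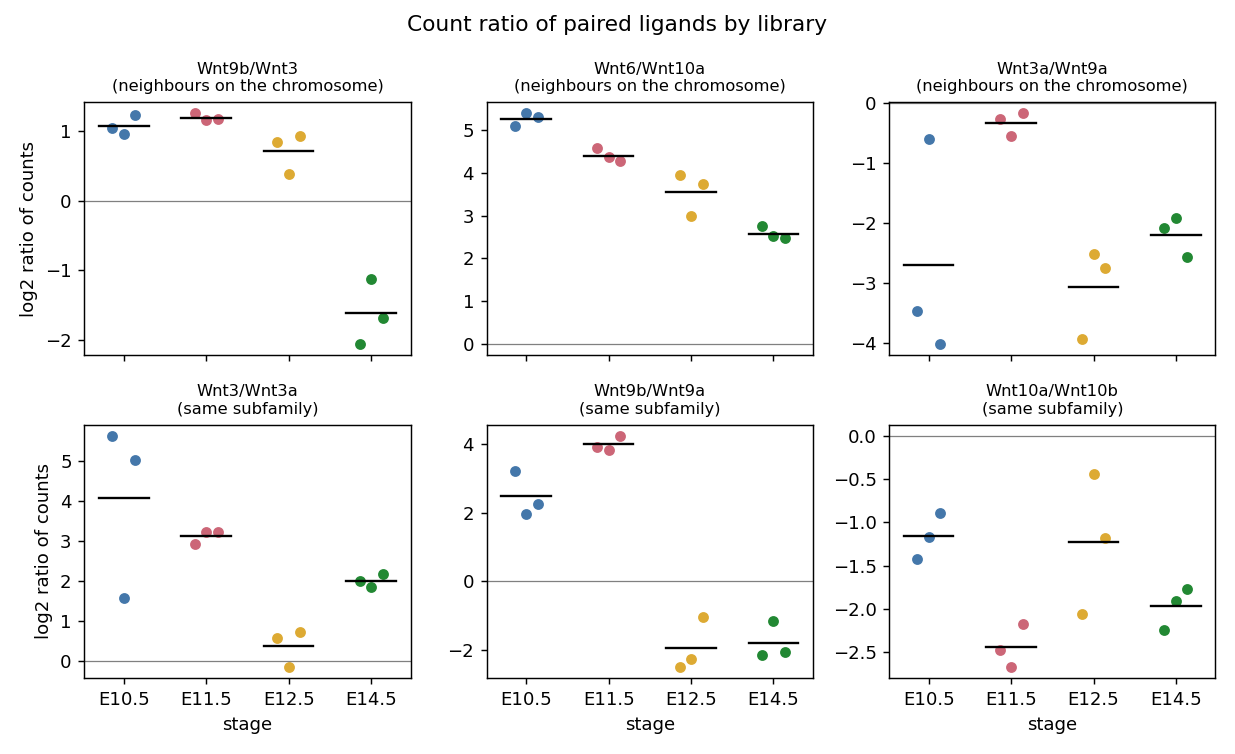
Log2 ratio of the read counts of 2 ligands, 0.5 added to each and not divided by exon length, by stage. Each point is 1 library, each bar the mean of 3, and the grey line a count ratio of 1. Wnt9b over Wnt3 is positive in all libraries up to E12.5 and negative in all 3 at E14.5, and Wnt6 over Wnt10a steps down at each stage.

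Wnt7b, a ligand needed for lung growth and for fusion of the placental membranes, had the largest E11.5 rise of the 9 with all libraries in; without E10.5 replicate 2 that of Wnt3a was larger (3.62, against 2.94 for Wnt7b). It measured 15.6, 12 and 7.66 CPM at E10.5, 98.3, 85.8 and 81.1 CPM at E11.5, 11.7, 21.9 and 23.5 CPM at E12.5, and 31.7, 36.5 and 29 CPM at E14.5. The E11.5 libraries stood well above the rest, and E10.5 and E12.5 overlapped. It was 7.52-fold higher at E11.5 than at E10.5 (log2 fold change 2.91 ± 0.26; edgeR adjusted p = 4.81e-06) and 4.64-fold lower at E12.5 than at E11.5 (-2.21 ± 0.25; edgeR adjusted p = 2.56e-05). Its rise at E14.5 over E12.5 was 0.76 ± 0.24 (edgeR adjusted p = 0.0195), and that call was lost without E12.5 replicate 1 (edgeR adjusted p = 0.0754) or E14.5 replicate 2 (0.0668). The antisense gene that shares part of its exons, AU022754, averaged 1.03 CPM or less at every stage.

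Wnt10b, which acts in hair and mammary placodes and in bone, peaked at E11.5 and rose again at E14.5, the last stage sampled. Its level was 3.77, 1.85 and 1.84 CPM at E10.5, 14.4, 16.1 and 12.2 CPM at E11.5, 4.33, 3.82 and 3.31 CPM at E12.5, and 20.3, 22.6 and 17.4 CPM at E14.5. The E14.5 libraries were the highest, E11.5 came next, and E10.5 and E12.5 overlapped. Step by step it was 5.73-fold higher at E11.5 than at E10.5 (log2 fold change 2.52 ± 0.24; edgeR adjusted p = 8.65e-06), 3.73-fold lower at E12.5 than at E11.5 (-1.90 ± 0.23; 4.43e-05) and 5.25-fold higher at E14.5 than at E12.5 (2.39 ± 0.23; 3.94e-06).

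Wnt6, a ligand of the surface ectoderm, moved the same way in smaller steps. It measured 48.1, 34.9 and 39.5 CPM at E10.5, 61.7, 52.3 and 51.9 CPM at E11.5, 16.2, 22.6 and 19.4 CPM at E12.5, and 28.9, 34.6 and 28.4 CPM at E14.5. The E12.5 libraries were the lowest of all 12, and no 2 stages next to each other in time overlapped. Its log2 fold change was 0.44 ± 0.14 at E11.5 over E10.5 (edgeR adjusted p = 0.0341), -1.51 ± 0.14 at E12.5 over E11.5 (7.26e-06) and 0.66 ± 0.14 at E14.5 over E12.5 (0.00199). The first of these calls was lost on leaving out any of 5 libraries (E10.5 replicate 2 or 3, or any E11.5 library; edgeR adjusted p = 0.0502 to 0.137).

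Wnt10a, which is required for tooth and hair development, measured 1.40, 0.813 and 0.986 CPM at E10.5, 2.56, 2.52 and 2.68 CPM at E11.5, 1.03, 2.81 and 1.45 CPM at E12.5, and 4.26, 6.01 and 5.10 CPM at E14.5. E14.5 was the highest stage without overlap, and the E12.5 libraries spread across the range of E10.5 and E11.5. It was 2.42-fold higher at E11.5 than at E10.5 (log2 fold change 1.28 ± 0.33; edgeR adjusted p = 0.0129) and 2.90-fold higher at E14.5 than at E12.5 (1.54 ± 0.31; 0.00133). The E12.5 over E11.5 difference of -0.55 ± 0.32 was not called (edgeR adjusted p = 0.162); without E12.5 replicate 2 it was -1.06 and was called (0.00927).

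Wnt4, known from kidney tubule and ovary formation, rose at E11.5 and was not called changed at the later steps. Its level was 16.7, 13.7 and 17.6 CPM at E10.5, 37.4, 34.6 and 35.9 CPM at E11.5, 20.8, 47.5 and 31.9 CPM at E12.5, and 30, 33.1 and 29.8 CPM at E14.5. All later libraries lay above E10.5, and the E12.5 libraries were spread widest, with replicate 1 lowest and replicate 2 highest. The E12.5 sums of epithelial markers, neuron markers (163, 472 and 288 CPM) and forebrain, eye and olfactory genes (31.9, 108 and 81.2 CPM) had the same order. So did those of the basal keratinocyte, suprabasal and periderm, regional facial ectoderm and skeletal muscle genes. The part of these in the Wnt4 spread was not tested. The E11.5 rise over E10.5 was 2.24-fold (log2 fold change 1.17 ± 0.21; edgeR adjusted p = 0.00146). At both later steps the log2 fold change was -0.11 ± 0.21 (edgeR adjusted p = 0.692 each). The later calls turned on single E12.5 libraries: E12.5 over E11.5 was -0.45 without replicate 2 (edgeR adjusted p = 0.0358), and E14.5 over E12.5 was -0.38 without replicate 1 (0.0472).

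Wnt9a, a ligand of developing joints, was not called higher at E11.5 and was the 1 ligand called higher at E12.5 than at E11.5. It measured 3.25, 5.25 and 5.03 CPM at E10.5, 5.02, 4.42 and 3.91 CPM at E11.5, 8.72, 9.34 and 8.01 CPM at E12.5, and 11.6, 10.4 and 11.2 CPM at E14.5. The first 2 stages overlapped, and every library of the later 2 lay above them. Its log2 fold change was -0.02 ± 0.18 at E11.5 over E10.5 (edgeR adjusted p = 0.954), 0.97 ± 0.17 at E12.5 over E11.5 (0.000706) and 0.35 ± 0.17 at E14.5 over E12.5 (0.106, not called). Of 7 cartilage markers, 0 were higher and 3 lower, 6 higher and 0 lower, and 4 higher and 1 lower at the same steps, and their part in the Wnt9a values was not tested. Called shares over all genes at these steps were 25.1%, 49.3% and 47.1%.

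Wnt3a, a ligand of the tail bud and dorsal neural tube, was called at no step in the fit described above, and other fits differed. It measured 0.279, 3.47 and 0.296 CPM at E10.5 (8, 94 and 9 reads), 4.16, 3.00 and 3.47 CPM at E11.5, 0.561, 1.62 and 1.19 CPM at E12.5, and 2.72, 2.75 and 1.88 CPM at E14.5. E10.5 replicate 2, the library with raised dorsal neural tube genes, lay within the E11.5 range, and the other 2 E10.5 libraries were the lowest of all 12. The log2 fold change of E11.5 over E10.5 was 1.41 ± 0.68 (edgeR adjusted p = 0.152), that of E12.5 over E11.5 was -1.65 ± 0.68 (0.0603) and that of E14.5 over E12.5 was 1.12 ± 0.69 (0.2). Without E10.5 replicate 2 the same steps were 3.62 (edgeR adjusted p = 0.000133), -1.68 (0.00101) and 1.10 (0.0125). With all 12 libraries and every gene with a count kept, edgeR also called the 3 steps (adjusted p = 3.76e-05, 2.78e-07 and 0.00133), and limma-voom called the first 2 (adjusted p = 0.0134 and 0.016).

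**Figure D3:**
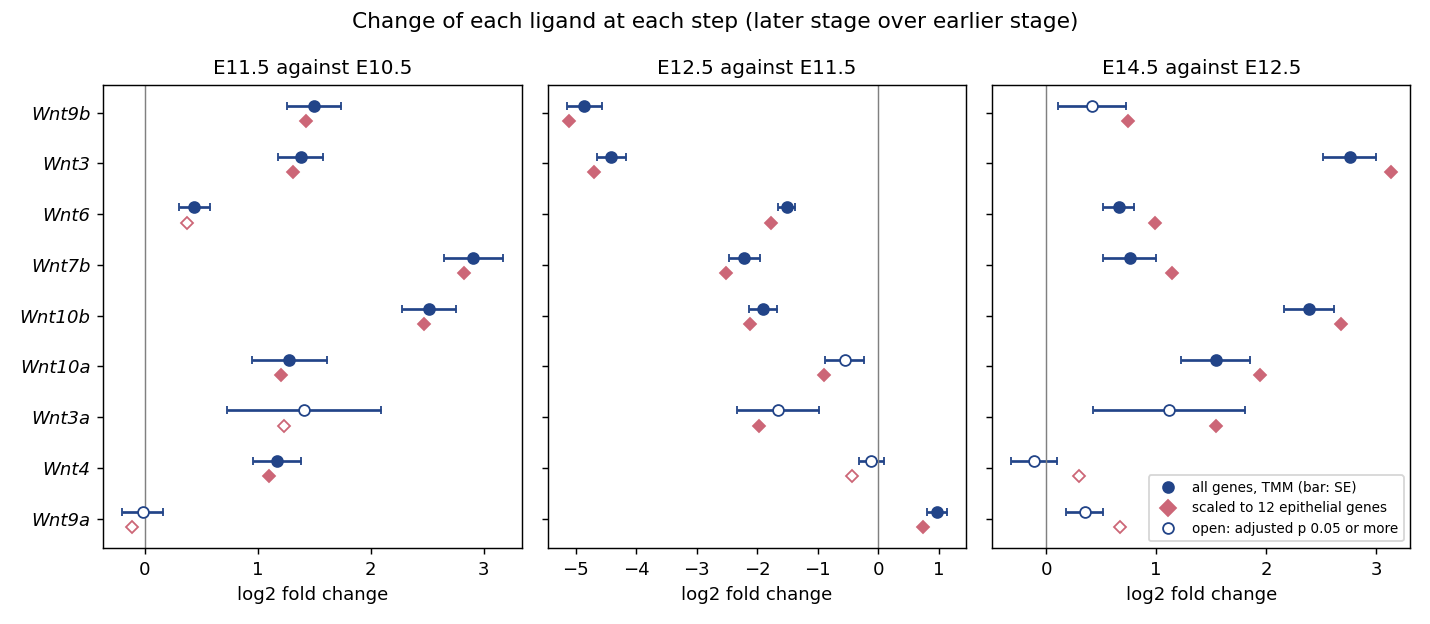
Log2 fold change of each ligand at each step, later stage over earlier stage; circles are the fit over all genes with SE bars, diamonds the fit scaled to 12 epithelial genes, and open symbols did not reach an adjusted p under 0.05. Both scalings give the same direction for every called ligand, and Wnt9b and Wnt3 lie farthest left at E12.5 over E11.5.

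Set against E10.5, the ligands did not return to one starting point. At E12.5, 4 of 9 were higher than at E10.5 (Wnt4, Wnt7b, Wnt9a and Wnt10b) and 3 lower (Wnt3, Wnt6 and Wnt9b), where 53.5% of all genes were called, 28% higher and 25.5% lower. Libraries of these stages did not overlap for 5 of the 9 ligands, beside 54.9% of all genes. Wnt9b was 10.2-fold lower and Wnt3 8.15-fold lower at E12.5 than at E10.5 (edgeR adjusted p = 7.99e-07 and 4.02e-07). The rise of Wnt10b in that comparison (log2 fold change 0.62 ± 0.25; edgeR adjusted p = 0.0482) was lost in 17 of 22 alternative fits, and that of Wnt7b (0.70 ± 0.25; 0.032) was lost without any of 4 libraries. Scaled to 12 epithelial genes, 1 ligand (Wnt4) was higher and 3 lower at E12.5 than at E10.5, with the calls of Wnt7b (0.32; edgeR adjusted p = 0.303), Wnt9a (0.63; 0.0616) and Wnt10b (0.35; 0.334) lost, and 35.1% of all calls were then higher, against 52.4% without that scaling. At E14.5, 5 were higher than at E10.5 (Wnt4, Wnt7b, Wnt9a, Wnt10a and Wnt10b) and 2 lower (Wnt6 and Wnt9b), where 70.4% of all genes were called, 36.6% higher and 33.8% lower. Libraries did not overlap for 7 of the 9 ligands, beside 75.5% of all genes. Wnt10b was 8.06-fold higher (edgeR adjusted p = 1.45e-07), Wnt10a 4.79-fold (3.47e-05), Wnt7b 2.76-fold (0.000147), Wnt9a 2.46-fold (1.69e-05) and Wnt4 1.93-fold (0.0013) at E14.5 than at E10.5. The fall of Wnt6 there was 1.33-fold (edgeR adjusted p = 0.0164) and was lost without E10.5 replicate 1, E14.5 replicate 1 or E14.5 replicate 3 (0.0627 to 0.0906).

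To compare ligands with each other, the scaled CPM were divided by exon length (RPKM). The 9 ligands summed to 43.4, 33.3 and 35 RPKM at E10.5, 92.7, 80.9 and 82.7 RPKM at E11.5, 19.9, 32.7 and 27.1 RPKM at E12.5, and 43.1, 48.6 and 40.6 RPKM at E14.5. The E11.5 sum stood above all others and the E12.5 sum below all others, without overlap. Wnt6 had the highest mean at all 4 stages, at 18.6, 25.2, 8.86 and 14 RPKM from E10.5 to E14.5, or 50%, 29.5%, 33.8% and 31.7% of the sum; at E12.5 its libraries overlapped those of Wnt4, the next in order. Next in mean came Wnt9b at E10.5 (5.53 RPKM), overlapping Wnt3, Wnt7b at E11.5 (18 RPKM), overlapping Wnt9b (15.7 RPKM), and Wnt4 at E12.5 (7.97 RPKM) and at E14.5 (7.39 RPKM), where it overlapped Wnt7b. Wnt9b made up 14.8% and 18.4% of the sum at E10.5 and E11.5, then 2.04% and 1.63% at E12.5 and E14.5. Wnt3 gave 10.2%, 11.7%, 1.74% and 7.27% in the same order, and Wnt10b 1.91%, 4.93%, 4.47% and 13.4%. Wnt3a and Wnt10a, at most 2.08 RPKM in mean at any stage, overlapped each other at the first 3 stages and lay apart at E14.5.

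**Figure D4:**
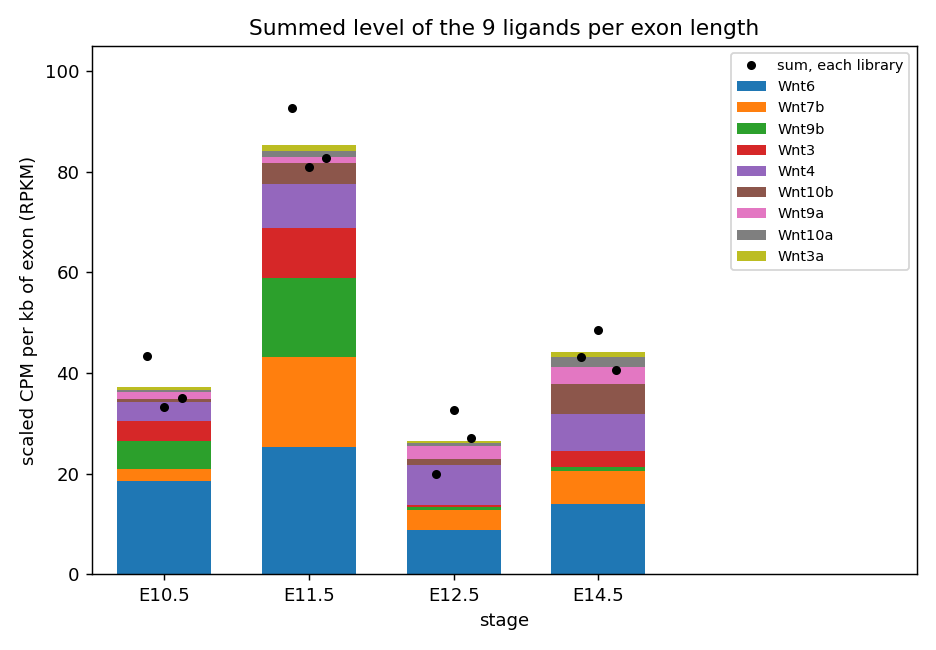
Mean level of each ligand per exon length (scaled CPM per kb, RPKM), stacked by stage from 0; black points are the sums in single libraries. The sum is 85.4 RPKM at E11.5 and 26.6 RPKM at E12.5, and the Wnt9b and Wnt3 segments nearly vanish at E12.5.

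General epithelial markers did not fall with the ligands. Of the 12 markers, 2 were higher and 0 lower at E11.5 than at E10.5, 2 higher and 1 lower at E12.5 than at E11.5, and 2 higher and 4 lower at E14.5 than at E12.5, with median log2 fold changes of -0.01, 0.32 and -0.28. All genes tested gave 25.1%, 49.3% and 47.1% called at these steps. Without E12.5 replicate 1 the marker counts became 4 and 1, 7 and 1, and 1 and 7, so that more epithelial markers were called higher at E12.5. Scaled to the epithelial markers in place of all genes, the log2 fold change at E12.5 over E11.5 was -5.11 for Wnt9b and -4.69 for Wnt3, both called, and 7 ligands were lower and 1, Wnt9a, higher, where 25.8% of all genes were called (2403 higher and 2333 lower). Under that scaling the median of all genes moved by -0.221 at E12.5 over E11.5 and by 0.302 at E14.5 over E12.5, and at E14.5 over E12.5 7 ligands were higher and none lower, Wnt9b (0.74; edgeR adjusted p = 0.0342) and Wnt3a (1.54; 0.0087) now among them. Over all genes that scaling called 28.4%, 4291 higher and 921 lower, at E14.5 over E12.5, against 4233 and 4413 without it. E11.5 over E10.5 lost the call of Wnt6 alone (0.37; edgeR adjusted p = 0.371).

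Other epithelial programmes followed courses of their own. Of 9 basal keratinocyte genes, 6 were higher and 1 lower at E11.5 than at E10.5, 4 and 2 at E12.5 against E11.5, and 6 and 1 at E14.5 against E12.5. Over all genes, 25.1%, 49.3% and 47.1% were called at the 3 steps. Keratin Krt5 measured 127, 148 and 95.6 CPM at E11.5, against 5.65, 4.32 and 1.74 CPM at E10.5 (log2 fold change 4.99; edgeR adjusted p = 1.32e-06). Of 10 suprabasal and periderm genes tested, 3, 3 and 8 were higher at the 3 steps and none lower. Among 13 tested signals and factors of regional facial ectoderm, 6 were higher and 6 lower at E12.5 than at E11.5. The AP-2 factor Tfap2a fell with Wnt9b, at 12.1, 11.3 and 11.8 CPM at E12.5 against 39.2, 34 and 40.8 CPM at E11.5 (log2 fold change -1.70; edgeR adjusted p = 2.24e-06), and Tfap2a was picked from this list after its values were seen. The ectodermal signal Shh was higher at E12.5 than at E11.5 by 2.21 on the log2 scale (edgeR adjusted p = 1.67e-05), and the LIM factor Lmx1b was lower (-4.55; 5.69e-06). Of 10 placode genes, 5 were higher and 0 lower at E11.5, 2 higher and 3 lower at E12.5, and 5 higher and 0 lower at E14.5, each against the stage before.

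Genes that handle Wnt proteins before they reach a receptor moved in both directions. Of 10 secretion and extracellular genes, 2 were higher and 2 lower, 3 and 2, and 4 and 2 over the 3 steps. Among all genes tested, 12.2% were higher and 12.9% lower, then 27.1% and 22.2%, then 23% and 24%, so calls in both directions were common. Porcn measured 5.84 to 9.49 CPM over all 12 libraries and was called at none of the 3 steps. Wls, the carrier, measured 174 to 235 CPM and was called at E14.5 over E12.5 alone (log2 fold change 0.21; edgeR adjusted p = 0.036). Notum, a secreted enzyme that strips the lipid from Wnt proteins, was lower at E12.5 than at E11.5 (-1.40; edgeR adjusted p = 0.0109). Of 7 other Wnt ligands tested, 3 were higher and 0 lower, 2 and 2, and 5 and 1 over the 3 steps. Wnt5a, a ligand of the mesenchyme that mostly acts without beta-catenin, also peaked at E11.5, at 266, 304 and 233 CPM, against 101, 59.9 and 62.8 CPM at E10.5 (log2 fold change 1.85; edgeR adjusted p = 5.7e-06). At E12.5 it was 72.1, 77.6 and 82.7 CPM (-1.79 against E11.5; 6.84e-06).

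Receptors moved in both directions. Of 15 receptors and co-receptors, 3 were higher and 5 lower at E11.5 than at E10.5, 8 and 2 at E12.5 against E11.5, and 5 and 3 at E14.5 against E12.5. The shares called over all genes at these steps were 25.1%, 49.3% and 47.1%. The receptor Fzd10 also peaked at E11.5, with 24.1, 30 and 21.5 CPM at E10.5, 81.9, 93.6 and 75 CPM at E11.5, 12.4, 18 and 20.1 CPM at E12.5, and 41.5, 44.9 and 34.4 CPM at E14.5. No 2 stages overlapped, and E12.5 was the lowest. Its log2 fold changes were 1.73, -2.31 and 1.25 (edgeR adjusted p = 1.12e-05, 1.34e-06 and 6.92e-05). Of 9 R-spondins, Lgr receptors and receptor-removing enzymes, 4 were higher and 0 lower, 4 and 3, and 4 and 3 over the steps. Of 14 core components such as Ctnnb1 and Dvl1, 4 were higher and 1 lower, 3 and 4, and 1 and 4.

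Most genes of a list of Wnt inhibitors rose at E11.5 and at E14.5. Besides secreted proteins the list holds Kremen1 and Kremen2, Dkk receptors in the membrane. Both were called higher, lower and higher at the 3 steps (log2 fold changes 0.68, -0.36 and 0.90 for Kremen1, 1.14, -0.97 and 0.67 for Kremen2). They are thus among the 6 listed genes that were lower at E12.5. Of 15, 9 were higher and 2 lower at E11.5 than at E10.5, 5 higher and 6 lower at E12.5 than at E11.5, and 11 higher and 2 lower at E14.5 than at E12.5. For all genes tested the shares were 12.2% higher and 12.9% lower, 27.1% and 22.2%, and 23% and 24%. Dkk1, which blocks Lrp co-receptors and is itself induced by beta-catenin, had log2 fold changes of 2.37, -2.99 and 1.52 (edgeR adjusted p = 9.45e-06, 1.89e-06 and 0.000161). The Frizzled-like inhibitors Sfrp2 (2.28; edgeR adjusted p = 1.5e-06) and Sfrp1 (1.40; 4.87e-06) were higher at E12.5 than at E11.5, when Wnt9b and Wnt3 were lower.

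Summed over the list, the beta-catenin response genes peaked at E11.5, as did the summed ligands, but not every listed gene did. At E11.5 over E10.5 Tcf7 was lower (log2 fold change -0.45, edgeR adjusted p = 0.0232). Notum and Znrf3 were not called there (edgeR adjusted p = 0.121 and 0.164). Of 12, 9 were higher and 1 lower at E11.5 than at E10.5, 2 higher and 10 lower at E12.5 than at E11.5, and 7 higher and 1 lower at E14.5 than at E12.5, with median log2 fold changes of 1.02, -1.36 and 0.58. Set beside these, 12.2%, 27.1% and 23% of all genes were higher and 12.9%, 22.2% and 24% lower. Summed, the 12 response genes ranged over 279 to 404 CPM in E10.5 libraries, 989 to 1110 CPM in E11.5 libraries, 257 to 371 CPM in E12.5 libraries and 388 to 449 CPM in E14.5 libraries. These genes are also read out in mesenchyme, and Dkk1, Notum, Lgr5, Znrf3 and Rnf43 stand in a second list as well. Axin2, a feedback inhibitor used as a readout of the pathway, measured 95.3, 77.1 and 66.3 CPM at E10.5, 160, 165 and 157 CPM at E11.5, 32.7, 39.1 and 43.8 CPM at E12.5, and 42.1, 36.9 and 36.3 CPM at E14.5. It was lower at E12.5 than at E11.5 (log2 fold change -2.06, edgeR adjusted p = 3.69e-07) and was not called at E14.5 over E12.5 (0, edgeR adjusted p = 0.988). Axin2 was chosen after its values could be seen, and 7 of the 12 response genes were higher again at E14.5. Lef1, the partner of beta-catenin on DNA, had 12.9, 12.1 and 13.2 CPM at E12.5, against 193, 218 and 174 CPM at E11.5 (log2 fold change -3.93; edgeR adjusted p = 9.03e-09). Tcf7 measured 34.3, 36.1 and 31.6 CPM at E14.5, against 7.42, 8.73 and 9.40 CPM at E12.5 (1.99; 2.75e-07). Lgr5 and Rnf43 were the 2 higher at E12.5 than at E11.5, Lgr5 by 2.26 on the log2 scale (edgeR adjusted p = 4.58e-06) and Lgr5 was lower at E14.5 than at E12.5 (log2 fold change -1.20; edgeR adjusted p = 0.000229).

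**Figure D5:**
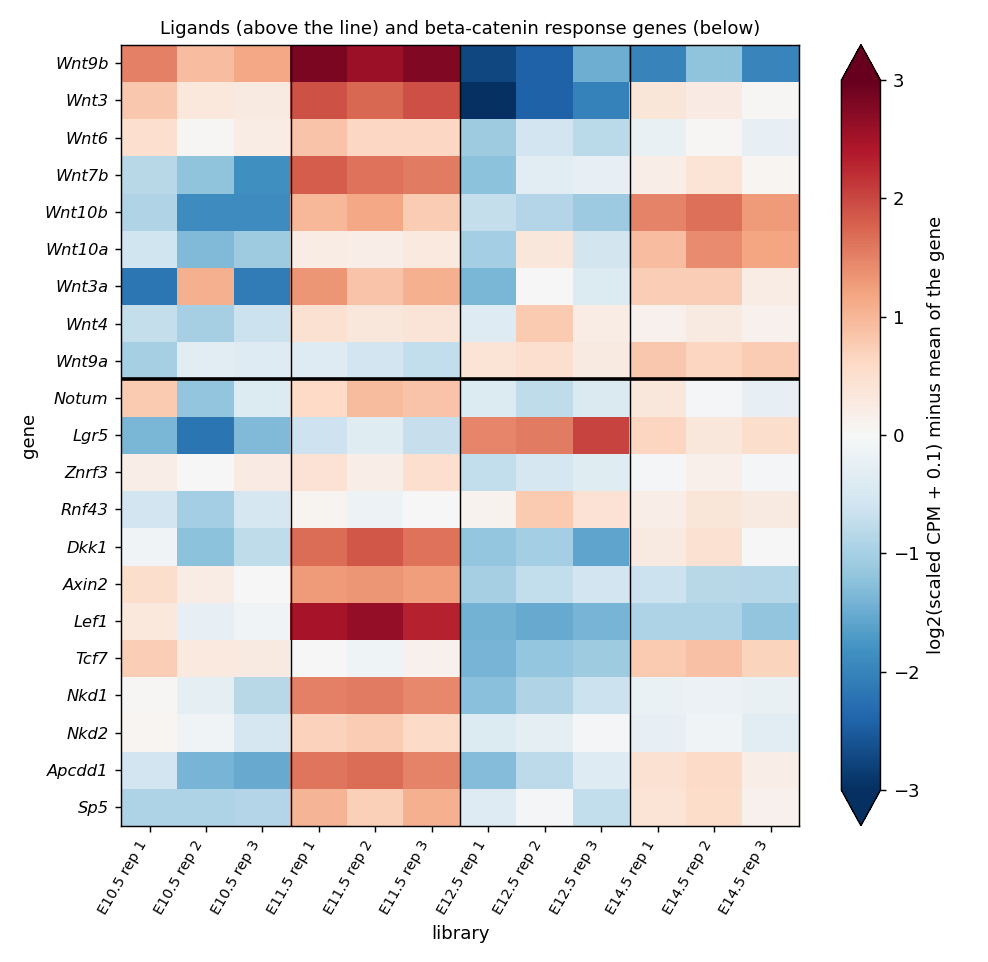
Level of the 9 ligands (above the line) and 12 beta-catenin response genes (below) in each library, as log2(scaled CPM + 0.1) minus the mean of the gene, so that colours compare libraries within a gene and not genes. Most rows are high at E11.5, but Wnt9a, Wnt10a, Wnt10b and Tcf7 are highest at E14.5 and Lgr5 and Rnf43 at E12.5, and Wnt3a in E10.5 replicate 2 differs from the other 2 libraries of its stage.

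The share of reads outside genes did not overlap between the stages compared, except at E11.5 against E10.5, so stage and share cannot be fully told apart in the other 4 comparisons. Within a stage the share varied most at E10.5 (1.92 to 4.88%) and little at E11.5 (2.16 to 2.42%), E12.5 (5.03 to 5.43%) and E14.5 (5.78 to 6.21%). The slope of the covariate therefore rests mainly on the E10.5 libraries and is carried over to the later stages. With the share as a covariate, 3 ligands were called at E12.5 over E11.5, all lower, where 693 genes (3.77%) were called in all. The 3 were Wnt9b (-4.85; edgeR adjusted p = 0.000328), Wnt3 (-4.29; 0.000241) and Wnt6 (-1.55; 0.0111). Wnt7b (-1.49; edgeR adjusted p = 0.0958), Wnt10b (-1.44; 0.115) and Wnt9a (0.85; 0.172) kept their direction and lost the call. Against E10.5, the covariate ended the calls of Wnt4 at E12.5 (0.77; edgeR adjusted p = 0.103) and at E14.5 (0.57; 0.28), of Wnt10b at E12.5 (0.95; 0.0901) and of Wnt6 at E14.5 (-0.45; 0.186). It added Wnt3a at E14.5 over E10.5 (4.38, edgeR adjusted p = 0.0169, against 0.88 and 0.267 without the covariate). For Wnt3a the E10.5 library with the lowest share, replicate 2 (1.92%), had 94 reads, against 8 and 9 in replicates 1 and 3. The Wnt3a values with the covariate therefore depend on that library and cannot be read as corrected for the share. At E11.5 over E10.5 the covariate ended the call of Wnt6 (0.45; edgeR adjusted p = 0.0583), and at E14.5 over E12.5 it ended no call of a ligand and added Wnt3a (1.83; 0.0253).

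Likeness of course was measured as Pearson's r of log2 CPM over the 12 libraries with each of 11995 protein-coding genes (11996 for Wnt3a) at 5 CPM or more in their highest stage; libraries of one stage share that stage, so r describes the course only. Nearest to Wnt9b were Tnfaip6 (r = 0.979), a hyaluronan-binding protein, Fam196b (0.978) and Pcx (0.975), and its neighbour Wnt3 ranked 841st (0.829). Nearest to Wnt3 were Irx5 (0.974), an Iroquois homeobox factor, Znrf3 (0.961), which removes Frizzled from the cell surface, and Emilin2 (0.959), with Wnt6 in place 6 (0.949) and Wnt9b in place 106. The related factor Irx3 was nearest to Wnt6 (0.975), and Wnt3 came in place 3 there. Apcdd1, a Wnt inhibitor at the membrane, was nearest to Wnt7b (0.981), and the parathyroid hormone receptor Pth1r to Wnt10b (0.982). Kera, a corneal and connective tissue proteoglycan, was nearest to Wnt10a (0.971), followed by Lypd3 (0.964) and Kremen1 (0.963), a Dkk receptor, and Wnt10b ranked 94th (0.887). Sparcl1 was nearest to Wnt9a (0.981), Kcnk2 to Wnt4 (0.948) and Tcaf2 to Wnt3a (0.863).

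Genes that flank the Wnt loci moved in different ways. Beside the Wnt9b and Wnt3 pair, Gosr2 measured 101, 95.9 and 90 CPM at E12.5, against 114, 121 and 117 CPM at E11.5 (log2 fold change -0.30 ± 0.08; edgeR adjusted p = 0.00766), and Nsf 45.2, 40.5 and 45.1 CPM, against 48.8, 49.1 and 50.8 CPM (-0.18 ± 0.07; 0.0446). Both act in membrane fusion, and both fell by far less than the ligands between them. Arf1, beside Wnt3a, and Cdc42, beside Wnt4, were called at none of the 3 steps. Arf3, beside Wnt10b, was called at the later 2 steps in the direction of Wnt10b, with log2 fold changes of -0.30 (edgeR adjusted p = 0.00338) and 0.41 (0.00041), where Wnt10b had -1.90 and 2.39. Prkag3, a kinase subunit gene beside Wnt6, moved more than Wnt6 at E14.5 over E12.5, from a low level. It measured 3.40, 2.78 and 2.53 CPM at E14.5, against 0.0623, 0.366 and 0.232 CPM at E12.5. The log2 fold change was 3.69 (edgeR adjusted p = 0.000145), where Wnt6 had 0.66. Prkag3 was called at neither earlier step. At E12.5 over E11.5 its sign was opposite to that of Wnt6 (2.17, edgeR adjusted p = 0.0615, against -1.51).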

How the data were processed

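Polyadenylated RNA of 12 mouse maxillary prominence libraries was sequenced. The deposited files hold whole-number read counts per Ensembl gene made by the authors. Per the submitters' processing notes, the tools were STAR 2.7.3a and HTSeq 0.12.4, beside FastQC, on build mm10. Which gene models, strand option or read filters the authors used is not given in the sources used here. Each file ends in 5 entries that name no gene (14.3 to 18.6% of its total), which were left out. Gene symbols were taken by identifier from GENCODE vM21 (53706 of 53801 matched).

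Counts were scaled by TMM, filtered with filterByExpr (minimum count 10) and fitted over all 12 libraries with 1 mean per stage by edgeR 4.0.16 (glmQLFit and glmQLFTest, R 4.3.3), with Benjamini-Hochberg adjustment over 18365 genes; the biological coefficient of variation was 0.142. Depth was 28294837 to 33941430 counts in genes. RPKM divides scaled CPM by summed exon length. Count ratios of 7 pairs used an exact permutation test of the between-stage sum of squares, which has no direction. No 2 libraries of the same stage agreed within sampling noise (lowest chi-square per degree of freedom 4.38). Scripts were tested on simulated data. The members, lists and tests were chosen with earlier results of these data known. All 9 members are named; of each list, up to 4 called genes with the largest change per step and at least 1 CPM in the higher stage could be named, and further genes named for their role (Axin2, Porcn, Wls, Ctnnb1, the epithelial markers and Tfap2a) were chosen after their values could be seen. The alternatives were DESeq2 1.42.0 (test and size factors), limma-voom (limma 3.58.1), other count filters, each library left out, a replicate block, scaling to epithelial genes, the share of reads outside genes as a covariate, fits of the 2 stages alone and a minimum change of 2-fold. Promoter windows are from RefSeq GRCm38.p6.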

Additional observations from a re-analysis of the deposited data

How the results depend on the processing

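Over 22 alternatives and 5 comparisons, 881 of 990 ligand fold changes kept direction and side of the threshold, 60 lost the call, 31 gained one and 18 changed sign, 1 of them with a call. That one was Wnt3a at E12.5 over E10.5 without E10.5 replicate 2 (1.94); its other changes of sign there were 0.66 (limma-voom), 0.03 (replicate block), 2.54 (share of reads outside genes as covariate) and 0.07 (without E12.5 replicate 1), in a range of -0.73 to 1.94 on leaving out 1 library, and at E12.5 over E11.5 it was 1.45 with the covariate. Wnt9a at E11.5 over E10.5 was 0 with limma-voom, 0.01 with the 2 stages alone, 0.02 with the covariate, and between -0.21 and 0.12 on leaving out 1 library (0.01 or 0.07 in the other changes of sign). Wnt4 was 0.30 at E14.5 over E12.5 under epithelial scaling, 0.23 there without E12.5 replicate 2, and 0.12 at E12.5 over E11.5 without E12.5 replicate 1, in ranges of -0.38 to 0.23 and -0.45 to 0.12. The cause of these changes was not tested.

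The number of ligands called moved by over 1.5 times to 3 at E12.5 over E11.5 with the covariate, to 4 (1 higher, 3 lower) at E12.5 over E10.5 under epithelial scaling, and, when a change beyond 2-fold was required, to 2, 2, 2 and 3 at E11.5 over E10.5, E14.5 over E12.5, E12.5 over E10.5 and E14.5 over E10.5. A stricter requirement calls fewer genes by construction. Over all genes, calls at the 3 steps were 4615, 9047 and 8646, against 2101, 4736 and 5212 under epithelial scaling and 525, 1014 and 1360 beyond 2-fold; against E10.5, 9821 at E12.5 and 12932 at E14.5 became 5616 and 7485 with the covariate and 1650 and 4230 beyond 2-fold. Of the calls at E12.5 over E10.5, 52.4% were higher, and 35.1% under epithelial scaling. Leaving out 1 library gave 6 to 7, 6 to 8 and 4 to 6 ligands at the 3 steps, 5 to 7 at E12.5 over E10.5, 6 to 8 at E14.5 over E10.5 and 8 to 9 in the joint test. For the count ratios the adjusted exact permutation p over these fits was 0.000455 to 0.00258 for Wnt9b over Wnt3 and for Wnt9b over Wnt9a, 0.000227 to 0.00182 for Wnt6 over Wnt10a, 0.002 to 0.136 for Wnt3a over Wnt9a, 0.025 to 0.0932 for Wnt10b over Wnt1, 0.000227 to 0.085 for Wnt3 over Wnt3a and 0.00227 to 0.102 for Wnt10a over Wnt10b.

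Replicate numbers are shared by the stages, but the deviations of same-numbered libraries correlated at -0.12 to 0.18, and no comparison had all 3 pairs above 0.1. At E12.5 against E10.5 they were 0.08, 0.18 and 0.13. By that threshold the numbers were not taken as pairs. With the replicate block, 7, 7 and 5 ligands were called at the 3 steps, 7 at each later stage over E10.5 and 9 in the joint test; 1 ligand changed its call among the 5 comparisons, Wnt3a at E12.5 over E11.5 (-1.81, edgeR adjusted p = 0.0285).

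Alternatives for the lists were added after seeing the data. The 12 beta-catenin response genes gave 10, 12 and 8 calls at the 3 steps, and 10, 8 and 8 with the covariate. At E12.5 over E11.5 the covariate gave 5 inhibitor calls against 11 without it, 4 receptor calls against 10, 1 basal keratinocyte call against 6, 2 neuron calls against 8 and 0 general epithelial calls against 3 (edgeR). Epithelial scaling gave 4 (1 higher, 3 lower), 5 (3 and 2) and 4 (4 and 0) receptor calls at the 3 steps, against 8, 10 and 8 without it, 7 inhibitor calls against 11 at E11.5 over E10.5, and 12 neuron calls (6 and 6) against 6 (0 and 6) at E14.5 over E12.5. Low counts limit Wnt3a, Wnt10a and the E12.5 values of Wnt9b and Wnt3.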
